A study of Mus musculus with 12 samples.

Results

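The comparison described here sets the cerebellum next to a medulloblastoma against the cerebellum of mice without a tumor, by bulk RNA sequencing. It was fixed by the tissue labels, and it holds 9 of the 12 samples of the series, namely 3 samples labelled Normal adjacent cerebellum (mice GB344, GB359 and GB370) and 6 control cerebella. The adjacent samples carry the genotype Brca2-mut;Trp53-mut. The controls are 3 Brca2-mut;Trp53-WT mice (GB361, GB508 and GB512, called Brca2-mut controls below) and 3 Brca2-WT;Trp53-mut mice (GB517, GB519 and GB520, called Trp53-mut controls). The other 3 samples of the series are the tumors of GB344, GB359 and GB370. In the study's methods, an hGFAP-Cre transgene deletes floxed exons of Brca2 in cells of the central nervous system that use this promoter, and the Trp53 null allele is present in every cell. Whether the mice with wild-type Brca2 carried the Cre was not stated in the sources used here. Tumor mice were taken at a tumor or humane endpoint, and the study calls its control cerebella age-matched, with P90 given for the controls in a supplementary sheet. A supplementary legend has double-mutant mice sicken by P90 and then be humanely killed. No age for each tumor mouse was given in the sources used here. Each control shares 1 mutant gene with the adjacent samples, and no tumor-free mouse with both was analysed, so genotype, tumor bearing and dissection cannot be told apart here.

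The adult cerebellum is made mostly of granule neurons, with Purkinje cells as its output, inhibitory interneurons, Bergmann glia and other astrocytes, myelinating oligodendrocytes, microglia and vessels. Granule neurons arise after birth from progenitors that divide under Sonic hedgehog, express the transcription factor Atoh1 and are gone from the mature cerebellum. Medulloblastoma of the hedgehog group grows from these progenitors and keeps their genes, and adult cerebellum expresses most of them little. Tissue around a brain tumor is also known for reactive astrocytes, activated microglia and loss of myelin.

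Values are TPM, a measure of transcript abundance which the authors scaled for transcript length and library total, so levels can be compared between genes but the read depth behind them is unknown. Between 15123 and 15803 genes reached 1 TPM in the 9 cerebella. All 9 expressed cerebellar genes: Gabra6, a GABA receptor subunit of granule neurons, was at 331 to 433 TPM in adjacent samples, 505 to 670 TPM in controls and 8.11 to 26.9 TPM in tumors. Adjacent GB370 and its tumor were the only libraries with Xist (97.1 and 215 TPM, against at most 0.243 TPM in the others) and had the Y-linked Ddx3y at 0.810 and 0.411 TPM, against 31.2 to 42.6 TPM in the others. Differences between GB370 and the other adjacent samples therefore cannot be told apart from a difference in sex. Trp53 was at 66.1 to 85.0 TPM in adjacent samples, 33.1 to 37.2 TPM in Brca2-mut controls and 47.1 to 49.4 TPM in Trp53-mut controls, and Brca2 at 4.52 to 6.98, 3.4 to 3.79 and 3.24 to 4.40 TPM. These sums over all transcripts of a gene do not see the deleted exons and check no label.

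Progenitor and tumor genes led the genes that were higher in adjacent cerebellum, and few genes were lower. Of 16091 genes tested with limma on log2(TPM + 1), 36 were called higher (0.224%) and 2 lower (0.0124%), where a call needs an adjusted p below 0.01 together with a log2 fold change of 1 or more in size. A wider rule, which asks for an adjusted p below 0.05 and no minimum size, was passed by 1627 genes that were higher (10.1%) and 897 that were lower (5.57%), and the verbs rose and fell below refer to genes that passed it. The median log2 fold change of all tested genes was 0.07. Of the called genes 94.7% were higher, and after quantile normalization, which moved that median by -0.10, 41 were called higher and 18 lower (69.5% higher). The adjusted p of the 36 called genes lay between 0.00537 and 0.00983, and the strict count moved with each library left out. Without adjacent GB344, GB359 or GB370, 1, 11 and 564 genes were called higher and 1, 29 and 22 lower. Without control GB361, GB508, GB512, GB517, GB519 or GB520, 2, 4, 6, 7, 1 and 0 were called higher and 0 lower in each case. Without GB520, the library whose absence left 0 calls, limma still gave 850 higher and 446 lower genes at an adjusted p under 0.05. Fewer genes passed the wider rule in smaller fits, and the counts of list members given for them are to be read against these shares. Without GB344, 1.06% of all genes rose and 0.534% fell, and without GB359 2.77% and 2.83%. With the Brca2-mut controls alone 1.70% rose, and with the Trp53-mut controls alone 0.398%. All 38 called genes kept an adjusted p under 0.05 in each of the 9 fits that left out a sample. Nothing states that the samples of a group came from separate litters, so the p-values measure the spread between these mice.

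The clearest difference was in the genes of granule cell progenitors and the hedgehog pathway. Atoh1 was at 59.4, 50.5 and 5.0 TPM in adjacent GB344, GB359 and GB370, against 0 to 0.212 TPM in the 6 controls and 119 to 319 TPM in the tumors. All 3 adjacent samples lay far above all controls, and GB370 lay about an order of magnitude below the other two. The log2 fold change was 4.62 ± 0.60 (SE, adjusted p = 0.00883). Nhlh1, a transcription factor of newly born granule cells, was at 77.4, 45.9 and 9.28 TPM against 0 to 0.325 TPM (log2 fold change 4.88 ± 0.50, adjusted p = 0.00537). Igfbpl1, which binds insulin-like growth factors and marks immature neurons, was at 103, 99.2 and 10.2 TPM against 0.171 to 0.537 TPM (5.17 ± 0.59, adjusted p = 0.00706), the largest rise of all called genes. GB370 was the lowest adjacent sample for 28 of the 36 called genes.

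**Figure D1:**
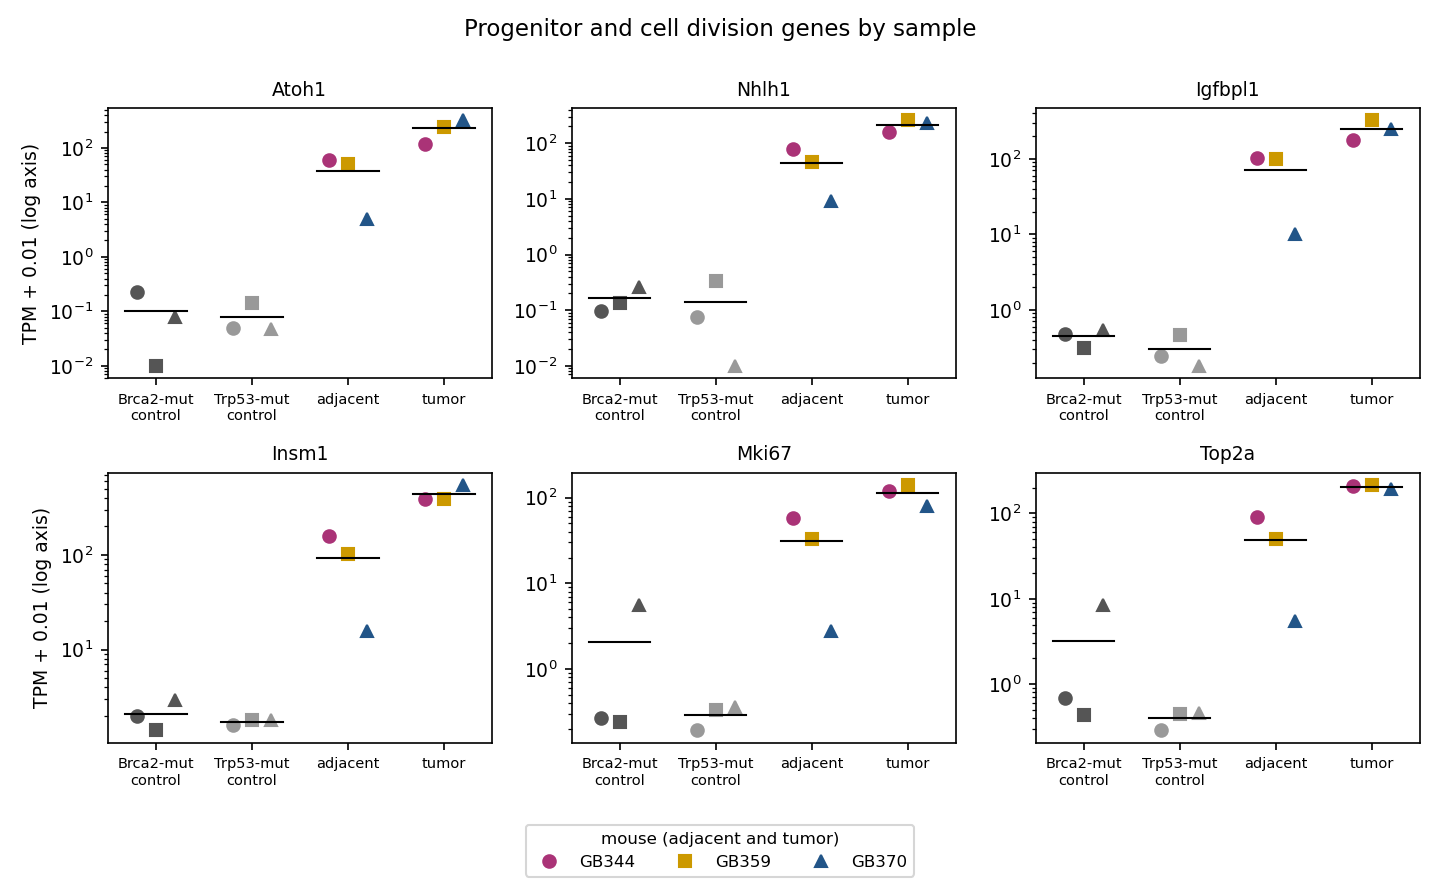
TPM (log axis, 0.01 added) of Atoh1, Nhlh1, Igfbpl1, Insm1, Mki67 and Top2a in each sample by group, with circles, squares and triangles for GB361, GB508 and GB512, for GB517, GB519 and GB520, and for GB344, GB359 and GB370, and a line at each group's mean. Adjacent GB344 and GB359 sit between controls and tumors, GB370 lies lower, and control GB512 stands above the other controls for Mki67 (5.63 TPM) and Top2a (8.42 TPM).

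Of the 23 genes of the progenitor and hedgehog list, all were tested, 3 were called higher, 18 rose and 0 fell, with a median log2 fold change of 2.52. Gli1, the transcription factor that reports hedgehog signaling, was at 67.2, 61.0 and 24.2 TPM against 15.2 to 21.4 TPM in controls (log2 fold change 1.34 ± 0.27, adjusted p = 0.0175). Gli1 lay higher still in the tumors, at 142 to 252 TPM, and tumor against adjacent gave 2.01 (adjusted p = 0.00678). Ccnd2, the cyclin that progenitors use to enter the cell cycle, was at 224, 160 and 22.4 TPM against 3.27 to 15.7 TPM (3.70, adjusted p = 0.0132). Dcx, a microtubule protein of migrating newborn neurons, rose too, at 33.1, 19.4 and 5.91 TPM against 1.48 to 2.72 TPM (2.47, adjusted p = 0.0111). Hsd11b2, which inactivates corticosterone and is a progenitor gene, was at 54.5, 55.6 and 4.08 TPM against 0.132 to 0.519 TPM (4.25, adjusted p = 0.010). Pif1, a helicase that unwinds G-quadruplexes, was at 18.1, 10.3 and 1.25 TPM, against 0 to 0.0641 TPM in 5 controls and 1.64 TPM in GB512, above adjacent GB370 (2.70, adjusted p = 0.0207). With GB344, GB359 or GB370 left out, 7, 13 and 21 of the 23 rose (1.06%, 2.77% and 16.4% of all genes did). With any 1 control left out, 18 or 19 rose (7.51% of all genes did without GB512). Against the Brca2-mut or the Trp53-mut controls alone 3 and 2 rose (1.70% and 0.398% of all genes), with medians of 2.47 and 2.74.

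The adjacent level of these genes can be set on the way from the controls to the tumor of the same mouse. For each gene it was taken as the adjacent value minus the control mean, as a percentage of the tumor value minus the control mean. Genes whose tumor value in that mouse did not exceed the control mean were left out. Over 22 progenitor genes the median was 51.1% in GB344 (quartiles 43.6% and 62.8%). It was 23.0% in GB359 (18.1% and 28.6%, 22 genes) and 1.99% in GB370 (1.34% and 2.69%, 21 genes). The 28 tested genes of the cell division list gave 40.2%, 23.3% and 1.39%. The mice kept this order with either control genotype alone, and the progenitor medians then lay at 49.9% to 51.1%, 21.5% to 22.5% and 1.75% to 2.22%. Tumor cells within the sample, progenitors outside a tumor and a different amount of RNA per cell cannot be told apart in bulk tissue, for these genes or for any cell type below. The percentages are therefore levels of RNA, not shares of cells.

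**Figure D2:**
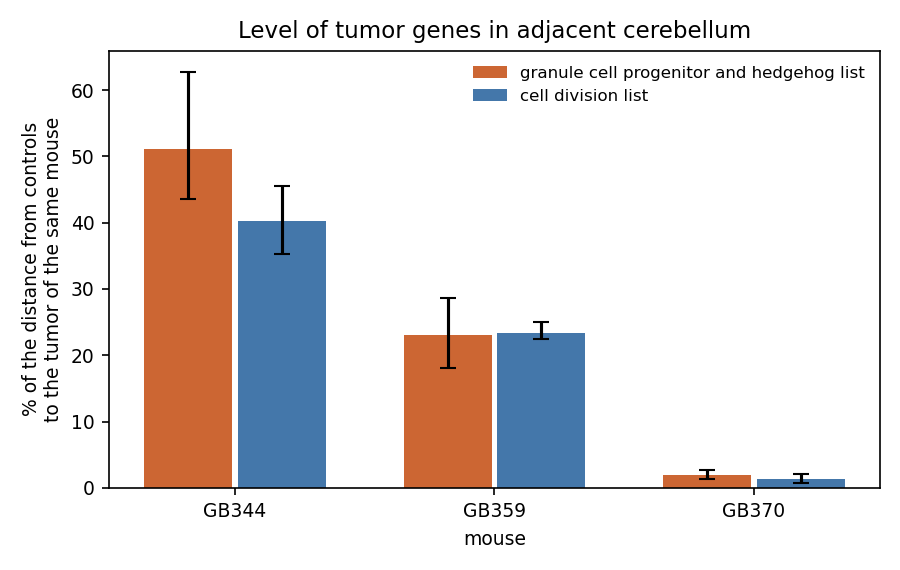
Median position of the adjacent sample between the controls (0%) and the tumor of the same mouse (100%) over the progenitor and hedgehog list and over the cell division list, with bars from the lower to the upper quartile over genes. The medians fall from 51.1% in GB344 to 23.0% in GB359 and 1.99% in GB370 for progenitor genes.

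The medians of cell division genes kept the same order of the mice, with GB344 highest and GB370 lowest. Of 28 tested genes of the cell division list, 0 were called under the strict rule, 24 rose and 0 fell (10.1% of all genes rose), with a median log2 fold change of 2.10. Top2a, the topoisomerase of dividing cells, was at 89.8, 49.5 and 5.53 TPM in adjacent samples, against 0.277 to 0.686 TPM in 5 controls and 8.42 TPM in GB512 (3.97 ± 0.84, adjusted p = 0.0194). Mki67, the proliferation marker, was at 58.4, 33.3 and 2.72 TPM, against 0.180 to 0.343 TPM in 5 controls and 5.63 TPM in GB512 (3.56 ± 0.83, adjusted p = 0.0249). In both, control GB512 lay above adjacent GB370, so the groups overlapped. Pcna, which clamps the polymerase to DNA, rose less (240, 204 and 103 TPM against 90.1 to 112 TPM, log2 fold change 0.78, adjusted p = 0.0373), and GB370 lay within the range of the controls. Without GB370 all 28 rose, but without GB344 or without GB359 0 did (1.06% and 2.77% of all genes). Without GB361, GB508, GB512, GB517, GB519 or GB520, 8, 12, 24, 18, 14 and 10 rose. Against either control genotype alone 0 rose, with medians of 1.93 (Brca2-mut controls) and 2.27 (Trp53-mut controls).

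The promoters of this list were searched for known elements. Genes of the G2 and M phases are known to be switched on through the CCAAT box, bound by NF-Y, and the cell cycle genes homology region TTTGAA, bound by the MuvB complex. Promoters of 25 of the 29 genes matched the RefSeq promoter table of GRCm38.p6, giving 26 start sites. CCAAT, on either strand, lay within the 250 bases before the start in 21 of the 26 (80.8%), against 33.8% of all 32851 promoters in the table and 5 of 15 (33.3%) for the progenitor list. TTTGAA, on either strand, lay in 7 of the 26 (26.9%), against 16.0% of all. Of the 7 that hold both elements, 3 are printed 5′ to 3′ in the direction of the gene, for the topoisomerase Top2a (chr11:99024190-99024439, minus strand), the mitotic kinase Cdk1 (chr10:69352913-69353162, minus strand) and the cyclin Ccnb2 (chr9:70421555-70421804, minus strand), with matches to either element or its reverse complement in capitals and no overlap between matches.
Top2a: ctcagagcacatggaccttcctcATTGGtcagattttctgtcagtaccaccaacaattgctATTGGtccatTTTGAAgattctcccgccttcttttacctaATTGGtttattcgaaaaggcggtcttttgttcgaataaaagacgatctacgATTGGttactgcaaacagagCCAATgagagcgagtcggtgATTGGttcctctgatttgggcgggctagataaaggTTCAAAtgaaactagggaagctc
Cdk1: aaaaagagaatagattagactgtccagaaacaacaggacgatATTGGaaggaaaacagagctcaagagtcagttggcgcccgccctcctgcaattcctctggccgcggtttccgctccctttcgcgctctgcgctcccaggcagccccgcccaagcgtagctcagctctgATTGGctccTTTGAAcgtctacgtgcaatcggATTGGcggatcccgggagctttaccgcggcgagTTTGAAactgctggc
Ccnb2: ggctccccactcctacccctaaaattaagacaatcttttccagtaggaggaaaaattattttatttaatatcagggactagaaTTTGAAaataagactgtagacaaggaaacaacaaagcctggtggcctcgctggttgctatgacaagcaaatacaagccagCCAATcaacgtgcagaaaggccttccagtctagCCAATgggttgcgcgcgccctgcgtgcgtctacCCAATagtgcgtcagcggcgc
The Top2a stretch held 6 matches to CCAAT and 2 to TTTGAA, that of Cdk1 3 and 2, and that of Ccnb2 3 and 1. Cdk1 was at 23.0, 14.8 and 1.79 TPM in adjacent samples against 0.158 to 2.72 TPM in controls (2.70, adjusted p = 0.0232), and Ccnb2 at 25, 18 and 3.44 TPM against 2.07 to 5.40 TPM (1.59, adjusted p = 0.0483). The matches describe these letters and show no binding.

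The position of each adjacent sample can be used to ask what a mixture of control tissue and the tumor of the same mouse would hold. With the progenitor median as the tumor part, cell division genes lay below that mixture in GB344 and GB370, by median log2 differences of -0.30 and -0.14. In GB359 their median difference was 0.01. Neuronal genes of GB344 lay above it. The mixture would put mature granule neuron genes 0.92 below the controls on the log2 scale and Purkinje genes 0.98 below, but the observed medians exceeded it by 0.40 and 0.47. Myelin genes lay below the mixture in GB344 (-0.44) and in GB370 (-0.89) and near it in GB359 (0.10). Reactive astrocyte genes lay above it in all 3 mice, by 0.31, 0.32 and 0.34. Over all tested genes the median difference was 0.12, 0.04 and 0.01. The mixture takes the controls as the tissue without tumor and equal RNA in both, which was not tested.

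**Figure D3:**
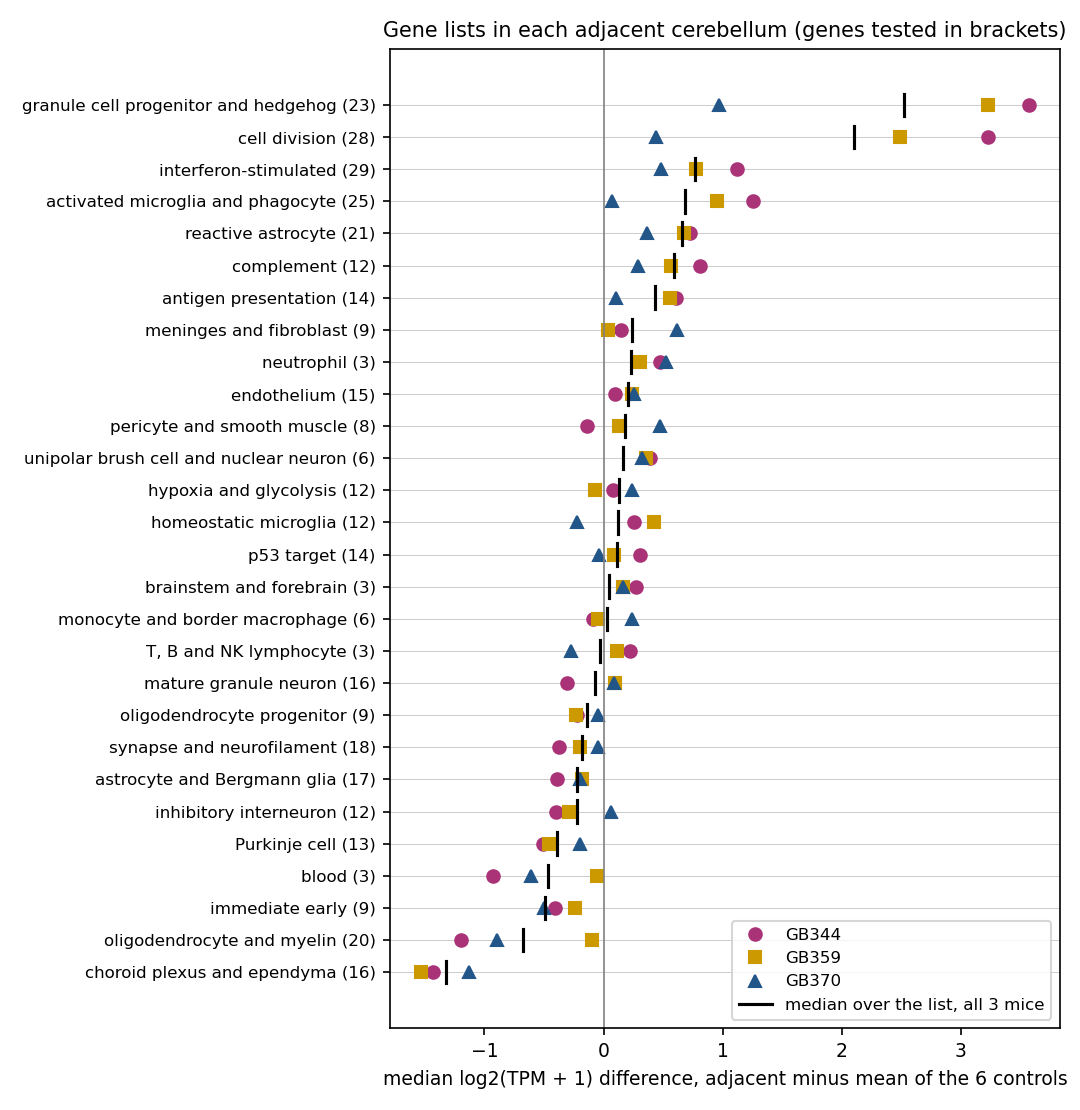
Median log2(TPM + 1) difference between each adjacent sample and the mean of the 6 controls, for 28 gene lists ordered by the median log2 fold change over all 3 mice (black tick). Progenitor and cell division genes spread widely by mouse, myelin genes are low in GB344 (-1.19) and GB370 (-0.89) but not in GB359 (-0.10), and the neuronal lists lie between -0.51 and 0.39.

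Neuronal genes differed little, and mostly downward. Of 16 mature granule neuron genes, 1 fell and 2 rose, with a median log2 fold change of -0.07, a value whose sign changed with the Brca2-mut controls alone (0.03) and without GB344 (0.03). The gene that fell was Gabra6, at 331, 433 and 418 TPM against 505 to 670 TPM in controls, with no overlap between the groups (-0.58 ± 0.11, adjusted p = 0.0156). Gabrd, another GABA receptor subunit of the same cells, was at 172, 216 and 245 TPM against 174 to 265 TPM (-0.06, adjusted p = 0.803). Reln, a secreted guide of neuronal position, rose (137, 167 and 141 TPM against 101 to 126 TPM, 0.41, adjusted p = 0.0201), as did Zic2, a transcription factor of granule cells (0.33, adjusted p = 0.0316). In tumors against adjacent samples, 11 of these 16 genes were called lower (18.0% of 15845 genes tested, with 4.76% called higher, or 2852 and 755 genes), among them Gabra6 by a log2 fold change of -4.43 (adjusted p = 0.000337).

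Purkinje cell genes gave different values with each control genotype. Of 13 genes, 0 rose and 3 fell against all 6 controls, with a median of -0.39. The summed TPM of the list was 7468, 7968 and 9306 in adjacent GB344, GB359 and GB370, 8453 to 9394 in Trp53-mut controls and 11725 to 13931 in Brca2-mut controls. All adjacent samples lay below every Brca2-mut control, and GB344 and GB359 but not GB370 also lay below every Trp53-mut control. Against Brca2-mut controls alone the median was -0.66 and 4 genes fell (0.733% of all genes fell). Against Trp53-mut controls alone it was -0.15 and 0 fell (0.522%), and the difference between both contrasts, which share the adjacent samples, was not tested. Rgs8, a regulator of G protein signaling in Purkinje cells, was at 317, 452 and 352 TPM, below the 557 to 582 TPM and 675 to 851 TPM of the Trp53-mut and Brca2-mut controls (-0.83 ± 0.16, adjusted p = 0.0149). Car8, which modulates the calcium channel Itpr1, was at 393, 450 and 393 TPM, also below all controls (544 to 1067 TPM, -0.82, adjusted p = 0.0269). Pcp2, the commonest Purkinje marker, was at 1612, 1786 and 2040.2 TPM against 1721 to 3019.8 TPM and did not pass (-0.35, adjusted p = 0.212). Without GB344, GB359 or GB512, 0, 1 and 2 of the 13 fell. In tumors all 13 were called lower than in adjacent samples.

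Interneuron genes fell at about the share of all genes. Of 12 inhibitory interneuron genes 1 fell (5.57% of all genes did), with a median of -0.22. It was Pvalb, the calcium buffer parvalbumin, at 997, 1161 and 1269 TPM against 1279 to 2011 TPM (-0.48, adjusted p = 0.0492). Without GB370, 4 of the 12 fell, and without GB344, GB359 or GB512, 0 did. Gad1, which makes GABA, was at 358, 335 and 528 TPM against 417 to 530 TPM (-0.18, adjusted p = 0.368). Of 18 synapse and neurofilament genes 3 fell and 1 rose, with a median of -0.18. The gene that rose was the syntaxin gene Stx1a, at 13.4, 9.17 and 3.56 TPM against 2.45 to 3.61 TPM (1.14, adjusted p = 0.0328) and at 25.2 to 28.3 TPM in tumors. The 3 that fell were the neurofilament subunits, the structural filaments of thick axons. Nefl was at 100, 254 and 120 TPM in GB344, GB359 and GB370 against 298 to 375 TPM in controls (-1.12 ± 0.24, adjusted p = 0.0190). Nefm was at 85.1, 176 and 79.3 TPM against 173 to 241 TPM (-0.90, adjusted p = 0.0278), and Nefh at 48.4, 103 and 60.1 TPM against 111 to 149 TPM (-0.94, adjusted p = 0.0198). GB344 and GB370 were low in all 3, and GB359 lay closer to the controls, below all of them for Nefl and Nefh and within their range for Nefm. Snap25, of the vesicle release machinery, was at 1415, 1619 and 2063 TPM against 1968 to 2567 TPM (-0.31, adjusted p = 0.138). Without GB370, 11 of the 18 fell (7.30% of all genes fell), and without GB344 0 did (0.534%). Of 6 tested genes of unipolar brush cells and nuclear neurons, Otx2, a transcription factor of the hindbrain and choroid plexus, rose (34.7, 22.3 and 31.0 TPM against 11.5 to 19.7 TPM, 0.84, adjusted p = 0.0224), and the median was 0.16.

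Myelin genes were low in 2 of the 3 adjacent samples, GB344 and GB370, the samples with the highest and the lowest progenitor genes. The 20 genes of the oligodendrocyte and myelin list summed to 2050 TPM in GB344, 5260 TPM in GB359 and 2511 TPM in GB370, against 4060 to 6016 TPM in the controls and 287 to 586 TPM in tumors. Of the 20, 8 fell and 0 rose (5.57% of all genes fell), with a median of -0.67, and without GB370 or GB512 7 and 9 fell (7.30% and 3.85% of all genes). Without GB344 0 fell and without GB359 14 did (0.534% and 2.83% of all genes), and without GB361 or GB520 4 and 5 did (2.71% and 2.77%). Against either control genotype alone 0 fell (0.733% and 0.522%), with medians of -0.60 (Brca2-mut controls) and -0.78 (Trp53-mut controls). Mbp, the main protein that compacts myelin, was at 908, 2791 and 1109 TPM against 1938 to 2982 TPM, and did not pass (-0.86 ± 0.30, adjusted p = 0.0752). Ugt8a, which makes the myelin lipid galactosylceramide, was below all controls in all 3 mice, at 12.3, 19.8 and 9.63 TPM against 22.9 to 46.6 TPM (-1.31 ± 0.25, adjusted p = 0.0149). Ermn, a late oligodendrocyte protein, was at 12.5, 31.5 and 16.3 TPM against 34.5 to 60.4 TPM (-1.22, adjusted p = 0.0218). In GB370, whose progenitor genes stood at 1.99% of the way to its tumor, Mbp lay at 1109 TPM where the mixture would hold 2541 TPM. Whether the samples differ in their white matter was not tested.

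Of 9 genes of oligodendrocyte progenitors, 1 rose and 2 fell, with a median of -0.14. Pdgfra, the growth factor receptor of these cells, was at 30.0, 33.9 and 14.2 TPM against 8.20 to 11.7 TPM in controls and 53.3 to 193 TPM in tumors (1.24 ± 0.23, adjusted p = 0.0151). Lhfpl3 fell (15.0, 20.1 and 13.6 TPM against 21.1 to 28.8 TPM, -0.59, adjusted p = 0.0264), as did the phosphatase Ptprz1 (-0.39, adjusted p = 0.0218).

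**Figure D4:**
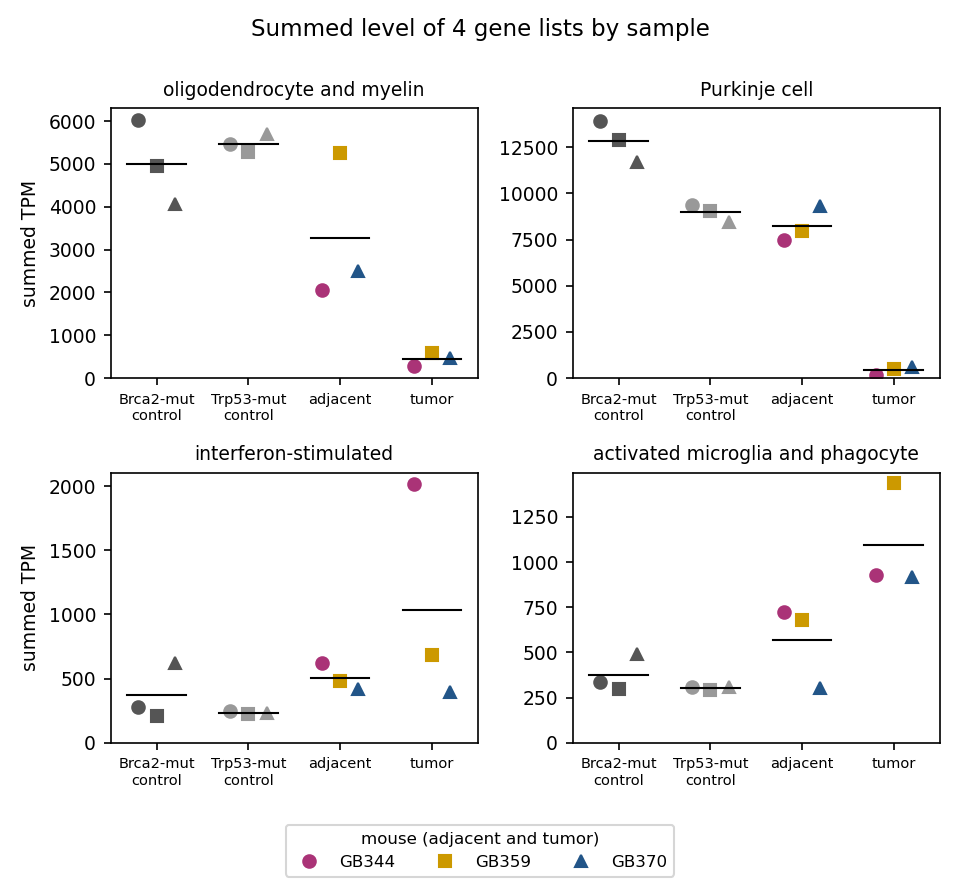
Summed TPM of the members of 4 gene lists in each sample by group (symbols as for the controls GB361, GB508, GB512 and GB517, GB519, GB520, and mice GB344, GB359 and GB370, in the order circle, square, triangle), with a line at each mean. Myelin genes are low in adjacent GB344 and GB370, Purkinje genes in adjacent samples lie below all Brca2-mut controls, and control GB512 is high for interferon-stimulated (624 TPM) and activated microglia genes (492 TPM).

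Astrocyte genes divided into 2 groups. Of 17 genes of resting astrocytes and Bergmann glia, 4 fell and 1 rose, with a median of -0.22. Hopx, a homeodomain protein of Bergmann glia, was at 157, 163 and 218 TPM, below the 265 to 369 TPM of all controls (-0.81 ± 0.13, adjusted p = 0.0116). S100b, a calcium-binding protein, was at 281, 370 and 335 TPM against 456 to 614 TPM (-0.68, adjusted p = 0.0135). Aqp4, the water channel of astrocyte endfeet, fell by 0.54 on the log2 scale (93.1, 116 and 105 TPM against 128 to 184 TPM, adjusted p = 0.0278). Slc1a3, the glutamate transporter GLAST, fell by 0.39 (adjusted p = 0.0274). The gene that rose was Gjb6, a connexin of astrocyte gap junctions (88.8, 86.1 and 124 TPM against 66.1 to 80.2 TPM, 0.39, adjusted p = 0.0469). In each of the 4 that fell, all 3 adjacent samples lay below all controls, including GB370. Over the whole list this held for 6 of the 17 genes, and over all tested genes for 1229 of 16091. Without GB344 0 of the 17 fell, and without any other sample 3 to 5 did. Against Brca2-mut controls alone 1 fell, with a median of -0.27 (0.733% of all genes fell). Against Trp53-mut controls alone 0 fell, with a median of -0.06 (0.522%). The summed TPM of the list was 5729, 6262 and 7413 in adjacent GB344, GB359 and GB370. It was 6416 to 6708 in Trp53-mut controls and 7116 to 7889 in Brca2-mut controls.

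Genes of reactive astrocytes were higher in their median but not in every member. Of 21 tested, 1 was called higher, 9 rose and 0 fell (0.224% of all genes were called higher and 10.1% rose). Their log2 fold changes ran from -0.35 to 1.49, with a median of 0.66. Serpina3n was at 16.0, 46.2 and 7.27 TPM in GB344, GB359 and GB370, where the mixture would hold 14.2, 18.3 and 17.3 TPM. Without GB370 12 rose, without GB344 3 did (16.4% and 1.06% of all genes), and without any other sample 7 to 10 did. Against Brca2-mut controls alone 2 rose, with a median of 0.64 (1.70% of all genes rose). Against Trp53-mut controls alone 0 rose, with a median of 0.65 (0.398%). Gfap, the intermediate filament that astrocytes raise on injury, was at 314, 285 and 213 TPM against 117 to 181 TPM in controls and 79.3 to 193 TPM in tumors (0.78 ± 0.15, adjusted p = 0.0156). Clcf1, a cytokine that signals to astrocytes through gp130 and the called member, was at 5.27, 4.53 and 6.34 TPM against 1.56 to 2.32 TPM (1.09 ± 0.14, adjusted p = 0.00883). It was also above all 3 tumors (2.32 to 3.79 TPM). Serping1, the inhibitor of complement C1, was at 38.2, 38.2 and 32.2 TPM against 17.5 to 24.7 TPM (0.77 ± 0.11, adjusted p = 0.00883). Timp1, an inhibitor of metalloproteinases, was at 14.5, 9.68 and 6.53 TPM against 2.77 to 4.70 TPM (1.23, adjusted p = 0.0133), and Stat3, the transcription factor downstream of gp130, rose by 0.34 (adjusted p = 0.0375). Lcn2, an acute phase protein, was at 11.8 TPM in GB344 and at 2.24 and 3.05 TPM in GB359 and GB370, against 0.607 to 1.63 TPM (1.49, adjusted p = 0.0296). Vim, Gfap's partner, was at 331 to 379 TPM against 255 to 333 TPM and did not pass (0.29, adjusted p = 0.0627).

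Microglial genes were divided into homeostatic and activation genes, and the difference between both lists was not tested. Of 12 homeostatic microglial genes 0 passed in either direction, with a median of 0.12 that changed sign under quantile normalization (-0.05) and without GB359 (-0.01). Without GB370, 3 of the 12 rose. P2ry12, the purine receptor of resting microglia, was at 6.08, 8.06 and 5.69 TPM against 6.81 to 8.81 TPM (-0.21, adjusted p = 0.284). Cx3cr1, the fractalkine receptor, was at 13.5, 15.1 and 8.48 TPM against 7.02 to 11.5 TPM (0.31, adjusted p = 0.268). Of 25 tested genes of activated microglia and phagocytes 6 rose and 0 fell (10.1% of all genes rose), with a median of 0.69. Their log2 fold changes ran from -0.91 to 2.21, so not every member was higher. Spp1 was at 23.2, 61.3 and 10.4 TPM in GB344, GB359 and GB370, where the mixture would hold 49.2, 46.7 and 48.3 TPM. Gpnmb, a glycoprotein of phagocytes laden with lipid or debris, was at 24.6, 16.2 and 6.88 TPM against 2.36 to 3.74 TPM in controls (1.92 ± 0.30, adjusted p = 0.0107). Cd68, a lysosomal protein, was at 23.8, 21.1 and 9.60 TPM against 5.29 to 9.54 TPM (1.24, adjusted p = 0.0188). Lyz2, lysozyme, was at 47.9, 34.6 and 19.9 TPM against 8.85 to 15.2 TPM (1.30, adjusted p = 0.0164). Both stood highest in GB344, then GB359, then GB370, but not every member of the list kept that order. Trem2 (19.8, 23.6 and 10.3 TPM) and Tyrobp (44.5, 48.5 and 14.3 TPM) stood highest in GB359. Cst7, a protease inhibitor of plaque-associated microglia, was at 15.7, 11.2 and 1.56 TPM against 0.398 to 1.38 TPM (2.21, adjusted p = 0.0219), and at 3.33 TPM in the tumor of GB344, below its adjacent sample. Summed over the list, GB370 (303 TPM) lay within the controls (294 to 492 TPM), and GB344 and GB359 lay above (724 and 679 TPM). Without GB370, 17 of the 25 rose, and without GB512, 10 did (16.4% and 7.51% of all genes rose). Without GB344 or GB359, 1 and 2 did (1.06% and 2.77%). Against either control genotype alone 0 rose, with medians of 0.55 (Brca2-mut controls, 1.70% of all genes rose) and 0.86 (Trp53-mut controls, 0.398%).

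Other leukocytes were near the limit of these libraries. Of 18 genes of T, B and NK cells, 14 stayed under 1 TPM in all 9 cerebella, and 1 was listed at 0 in all 3 adjacent samples. Cd3e, part of the T cell receptor complex, was at 0.194 to 0.663 TPM in adjacent samples and at most 0.165 TPM in controls. Cd3d, its partner in that complex, was the exception, at 15.5, 15.9 and 18 TPM against 5.20 to 9.39 TPM (1.07 ± 0.17, adjusted p = 0.0111), and at 23.3 to 44.1 TPM in tumors. The other defining T cell genes did not share that level, with Cd3g at 0.0921 to 0.396 TPM in adjacent samples and 0 to 0.507 TPM in controls, and Cd8a at 0.377 to 0.528 TPM and 0.316 to 0.450 TPM. Of 6 neutrophil genes 3 stayed under 1 TPM in all 9 samples and 0 passed, and of 8 genes of monocytes and border macrophages 6 were tested and 0 passed. Their medians were 0.23 and 0.03, the latter turning to -0.01 with median-of-ratios scaling and -0.10 with quantile normalization. Ccr2, the chemokine receptor of monocytes, was at 1.17 to 1.64 TPM in adjacent samples and 1.12 to 1.70 TPM in controls.

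The count of interferon-stimulated genes that rose was decided by 1 control library. With all samples, 2 of 29 rose and 0 fell, with a median of 0.77. Their summed level was 618, 482 and 422 TPM in adjacent GB344, GB359 and GB370, 209 to 278 TPM in 5 controls and 624 TPM in GB512. Each adjacent sample lay above those 5 controls and below GB512. With GB512 left out, 22 of the 29 rose (7.51% of all genes rose) and the median was 0.95. GB512 was also the highest control for cell division, activated microglia and complement, and it held the hindbrain gene Hoxa5 at 7.45 TPM, against 0 to 0.392 TPM in the other controls. The activated microglia and complement lists share C1qa, C1qb and C1qc. What sets GB512 apart was not tested. The 2 that rose with all samples were Xaf1 and Irgm1. Xaf1, an interferon-induced gene that favors apoptosis, was at 33.2, 30.0 and 29.3 TPM against 13.3 to 18.9 TPM in all 6 controls (0.87 ± 0.12, adjusted p = 0.00883). Irgm1, a GTPase of cell-autonomous immunity, was at 31.0, 23.7 and 18.6 TPM, against 6.21 to 9.79 TPM in 5 controls and 20.1 TPM in GB512 (1.27, adjusted p = 0.0265). In the tumors the list summed to 2013 TPM in GB344, 684 TPM in GB359 and 396 TPM in GB370. Adjacent GB344 lay 0.97 below its mixture on the log2 scale for this list and 0.98 below it for antigen presentation.

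Promoters of the interferon list were searched for the GAAA repeat bound by interferon regulatory factors. GAAA followed after any 2 bases by another GAAA, on either strand, lay in the 250 bases before the start in 12 of 23 promoters of the list (52.2%), against 2.98% of all promoters and 1 of 26 for cell division. The promoter of Irgm1 (GRCm38.p6, chr11:48871421-48871670, minus strand) is printed with its 2 matches, which overlap, in capitals, because Irgm1 is 1 of the 2 genes that rose with all samples.
Irgm1: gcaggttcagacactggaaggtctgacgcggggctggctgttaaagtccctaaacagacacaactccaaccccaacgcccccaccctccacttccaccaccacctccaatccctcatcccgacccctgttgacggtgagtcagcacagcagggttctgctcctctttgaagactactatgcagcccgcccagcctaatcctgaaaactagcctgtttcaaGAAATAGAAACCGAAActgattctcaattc
The promoter of Xaf1 in the table held 0 matches.

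Few genes of antigen presentation and complement rose, where 10.1% of all tested genes did. Of 14 genes of antigen presentation 1 rose, Tap2, a subunit of the peptide transporter (16.0, 19.1 and 18.2 TPM against 10.3 to 15.1 TPM, 0.48, adjusted p = 0.0344), with a median of 0.43. Without GB512 6 of the 14 rose and without GB370 3 did (7.51% and 16.4% of all genes). H2-K1, a heavy chain of MHC class I, was at 105, 94.6 and 56.9 TPM against 34 to 86.1 TPM (0.88, adjusted p = 0.0799). Of 12 tested complement genes 2 rose (median 0.59). They were Serping1 and C3ar1, the receptor of C3a, the latter at 2.68, 2.65 and 1.63 TPM against 0.727 to 1.32 TPM (0.71, adjusted p = 0.0235). Without GB512, 6 of the 12 rose (7.51% of all genes).

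A few genes of the vessel and meninges lists were higher in every adjacent sample than in every control, as were 1877 of all 16091 tested genes. This held for 3 of 15 endothelial, 1 of 8 pericyte and smooth muscle, and 3 of 9 meningeal and fibroblast genes. Of 15 endothelial genes 3 rose (10.1% of all genes did), with a median of 0.21, and 0 to 3 did with 1 sample left out. Without GB344 0 rose and without GB370 1 did (1.06% and 16.4% of all genes). Vwf, the clotting factor stored in endothelium, was at 18.8, 12.9 and 17.8 TPM against 5.69 to 9.17 TPM (1.04 ± 0.17, adjusted p = 0.0116). Slc2a1, the glucose transporter of the blood-brain barrier, was at 127, 114 and 152 TPM against 86.0 to 111 TPM (0.42, adjusted p = 0.0309). The third was the adhesion molecule Esam (0.44, adjusted p = 0.0369). Cldn5, the tight junction protein, was at 46.3, 67.1 and 49.7 TPM against 36.2 to 50.5 TPM (0.28, adjusted p = 0.158). Of 8 pericyte and smooth muscle genes 0 passed (median 0.18). The 9 meningeal and fibroblast genes had log2 fold changes from -0.77 to 1.11, with a median of 0.24. Without GB370, 3 rose and 2 fell (16.4% and 7.30% of all genes). With all samples 3 rose and 0 fell, and 1 of those that rose, Col3a1, was called. This fibrillar collagen was at 8.20, 5.04 and 5.75 TPM against 1.99 to 2.75 TPM (1.11 ± 0.16, adjusted p = 0.00883), while Lum, another matrix gene of fibroblasts, was at 2.82 to 3.68 TPM against 3.51 to 4.69 TPM (-0.25, adjusted p = 0.184). Col4a2, a basement membrane collagen outside these lists, was called too (17.3, 14.9 and 14.6 TPM against 6.56 to 7.96 TPM, 1.0 ± 0.10, adjusted p = 0.00537).

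Choroid plexus genes differed between the control groups. Ttr, the thyroid hormone carrier that this epithelium makes in bulk, was at 15.4, 7.71 and 50.6 TPM in adjacent samples. It was at 842, 9.60 and 11.8 TPM in Brca2-mut controls GB361, GB508 and GB512 and at 3849 to 5039 TPM in Trp53-mut controls. Adjacent samples therefore overlapped the Brca2-mut controls and lay below every Trp53-mut control. Of 16 choroid plexus and ependymal genes, 3 fell against all controls (median -1.33), 11 fell against Trp53-mut controls alone (median -2.60) and 1 fell against Brca2-mut controls alone (median -0.51). The 3 that fell against all controls were Foxj1, the regulator of motile cilia, and the ciliary genes Tmem212 and Dynlrb2. Foxj1 was at 7.35, 6.41 and 5.65 TPM against 8.68 to 12.7 TPM (-0.58, adjusted p = 0.0241). Of 17 genes of brainstem and forebrain 9 stayed under 1 TPM in all 9 samples and 1 rose, Neurod6 (0.83, adjusted p = 0.0284). Of 3 red blood cell genes tested, Hbb-bs fell (278, 441 and 339 TPM against 458 to 649 TPM, -0.61, adjusted p = 0.0279).

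A further set of genes was raised to a like level in all 3 adjacent samples, including GB370, where the progenitor genes stood at 1.99% of the way to the tumor. Txnip, an inhibitor of thioredoxin and glucose uptake, was at 83.7, 62.2 and 73.8 TPM against 17.8 to 29.0 TPM in controls (1.72 ± 0.15, adjusted p = 0.00537). Fkbp5, a cochaperone of the glucocorticoid receptor and its target, was at 30.1, 22.3 and 24.7 TPM against 5.57 to 10.6 TPM (1.64 ± 0.18, adjusted p = 0.00678). For GB370, the mixture with its tumor would hold 8.34 TPM of Fkbp5 and 24.2 TPM of Txnip. Map3k6, a stress kinase, was at 10.7, 7.92 and 11.5 TPM, above both the controls (1.70 to 4.06 TPM) and the tumors (2.0 to 4.26 TPM, 1.73 ± 0.20 against controls, adjusted p = 0.00814). Gpx3, a secreted glutathione peroxidase, was at 19.3, 18.5 and 23.7 TPM, against 5.94 to 8.60 TPM in controls and 10.7 to 17.2 TPM in tumors (1.37 ± 0.13, adjusted p = 0.00537). Map3k6, Gpx3 and Clcf1 were the only 3 of the 36 called genes with all adjacent samples above all tumors.

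**Figure D5:**
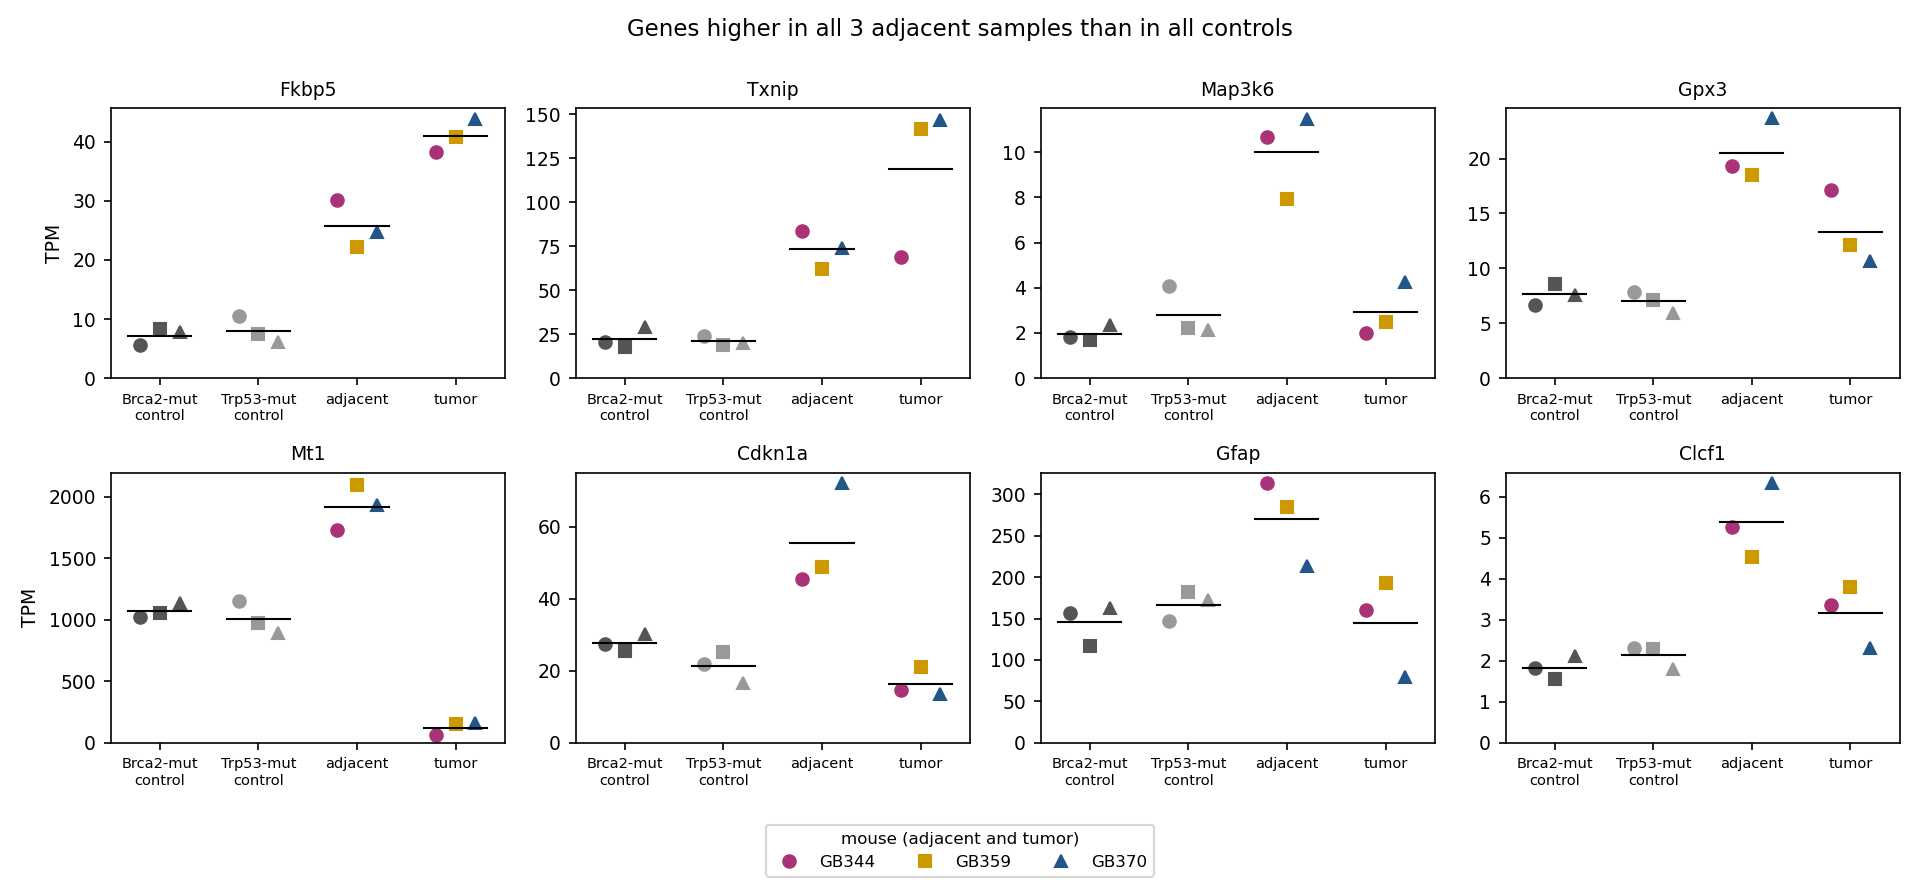
TPM of 8 genes in each sample by group (symbols in the order circle, square, triangle for GB361, GB508, GB512, for GB517, GB519, GB520, and for mice GB344, GB359, GB370), with a line at each mean. In all 8 the 3 adjacent samples lie above all 6 controls, and GB370 is the highest adjacent sample for Map3k6, Gpx3, Cdkn1a and Clcf1.

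The metallothioneins Mt1 and Mt2, which bind zinc and are induced by metals and glucocorticoids, rose in parallel. Mt1 was at 1731, 2094 and 1937 TPM against 892 to 1152 TPM in controls and 59.1 to 159 TPM in tumors (0.89 ± 0.10, adjusted p = 0.00706), and Mt2 rose by 0.87 (adjusted p = 0.00883). In GB344 the mixture with its tumor would hold 538 TPM of Mt1. Zbtb16, a transcription factor and glucocorticoid target, was at 25.5, 17.0 and 36.9 TPM against 4.80 to 11.7 TPM (1.55, adjusted p = 0.0152), and Cebpd at 16.1, 8.65 and 10.2 TPM against 2.36 to 6.48 TPM (1.23, adjusted p = 0.0218). A list of 20 genes known to respond to glucocorticoids was drawn up after these values were seen, so its counts describe the data only. All 20 were tested, 3 were called, 10 rose and 0 fell, with a median of 0.72, and with 1 sample left out 5 to 12 rose. Members that did not pass included Tsc22d3, which encodes GILZ (150, 145 and 220 TPM against 121 to 168 TPM, 0.26, adjusted p = 0.215). No hormone level was measured, and the cause was not tested.

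Targets of p53 did not move as a group. Of 14 genes 1 rose and 2 fell, with a median of 0.12 that became -0.04 with a minimum of 5 TPM. Without GB370, 4 of the 14 rose. Against the Brca2-mut controls alone, which are Trp53-WT, 1 rose and 0 fell, with a median of 0.17 (1.70% and 0.733% of all genes). Against the Trp53-mut controls alone 0 rose and 0 fell, with a median of 0.09 (0.398% and 0.522%). Cdkn1a, the cell cycle inhibitor p21, was at 45.5, 48.9 and 72.1 TPM, against 25.5 to 30.3 TPM in Brca2-mut controls, 16.7 to 25.1 TPM in Trp53-mut controls and 13.5 to 21.0 TPM in tumors (1.14 ± 0.19, adjusted p = 0.0116). Ccng1, a p53 target used as a readout of p53 activity, fell (29.7, 26.4 and 26.7 TPM against 32.5 to 43.8 TPM, -0.41, adjusted p = 0.0260), as did Phlda3 (-0.67, adjusted p = 0.0418). Mdm2, the ubiquitin ligase of p53, was at 41.0 to 48.2 TPM against 31.8 to 45.3 TPM (0.15, adjusted p = 0.333). Of 9 immediate early genes 1 fell, Arc, a gene of recent synaptic activity (8.41, 12.2 and 8.40 TPM against 13.5 to 17.2 TPM, -0.57, adjusted p = 0.0240), with a median of -0.49. Fos was at 22.2, 51.7 and 43.8 TPM against 56.3 to 147 TPM (-0.97, adjusted p = 0.0726). Of 12 hypoxia and glycolysis genes 2 rose, Slc2a1 and Adm, the vasodilator adrenomedullin (0.63, adjusted p = 0.0201), with a median of 0.13. Vegfa was at 114, 107 and 175 TPM against 93.8 to 144 TPM (0.12, adjusted p = 0.663).

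The remaining large changes were of single genes. Insm1, a zinc finger protein of dividing neuronal precursors, was at 159, 102 and 15.6 TPM against 1.40 to 2.96 TPM (4.49 ± 0.57, adjusted p = 0.00883), and Rcor2, a corepressor of neural progenitors, at 116, 78.1 and 17.8 TPM against 2.02 to 5.18 TPM (3.58, adjusted p = 0.00883). Mfap4, a matrix protein, was at 102, 28.1 and 13.9 TPM against 2.31 to 2.94 TPM (3.31, adjusted p = 0.00883). The 2 genes called lower were Cdr1 and 3110082J24Rik. Cdr1, named after the cerebellar degeneration antigen, was at 63.2, 112 and 70.5 TPM against 146 to 280 TPM in controls and 4.38 to 13.9 TPM in tumors (-1.41 ± 0.21, adjusted p = 0.00978). Its locus on chromosome X (GRCm38.p6, 61183246 to 61185558) is transcribed from both strands, and the counting was not stated to use strand, so which strand changed is uncertain. 3110082J24Rik was at 5.62, 8.26 and 8.10 TPM against 13.5 to 19.1 TPM (-1.03 ± 0.14, adjusted p = 0.00883). For both genes all adjacent samples lay below all controls and above all tumors.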

How the data were processed

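Bulk poly(A) RNA was sequenced from 3 adjacent cerebella, 6 control cerebella and 3 tumors of mice. The authors deposited 1 table of TPM (transcripts scaled for length and library total) for 24091 genes, made, per the submitters' processing notes and the study's methods, with Salmon 0.8.1 on mm10 transcripts summed to genes. Whether strand was used in counting was not given in the sources used here. TPM keeps no read depth, so no counting error could be given. Samples were grouped by their labels.

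Genes that reached 1 TPM in 3 or more of the samples compared entered limma 3.58.1 (R 4.3.3) on log2(TPM + 1), with a trended prior variance and Benjamini-Hochberg adjustment over all tested genes. Fold changes are on the log2(TPM + 1) scale, which understates changes of low genes. A call needed an adjusted p below 0.01 together with a log2 fold change of 1 or more in size. The script was tested on simulated data. The study's count model was not used, because counts were not analysed here.

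Members and gene lists were chosen with earlier results of these data known. Named genes were the 10 largest rises and 10 largest falls among non-overlapping called genes, up to 4 called members and the first 2 members of each list, the called genes outside the range of the tumors, Brca2, Trp53, Pif1 and sex-linked genes. A few members are not reported here by name. Other list members, Col4a2, Hoxa5 and the glucocorticoid list were picked once values were known. Promoters are from RefSeq (GRCm38.p6).

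Alternatives covered the pseudocount (0.1 and 5), the filter (none, and 5 TPM), median-of-ratios scaling, quantile normalization, no variance trend, all groups in 1 fit, the wider call rule, each control genotype alone, each sample left out, and, for tumor against adjacent, the mouse as a block. The tumor and adjacent samples are paired by the mouse number in their titles.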

Additional observations from a re-analysis of the deposited data

Results flagged for a closer look

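Among 29 gene lists, the summed TPM over the 6 control cerebella was checked for a library that stands far from the others, by Dixon's criterion, which flags about 5% of groups by chance. It flagged 6 lists. Control GB512 was high in 4 of them. Its interferon-stimulated genes summed to 624 TPM (the other 5 controls at 209 to 278 TPM), its activated microglia genes to 492 TPM (294 to 337 TPM), its complement genes to 268 TPM (135 to 163 TPM) and its cell division genes to 350 TPM (181 to 217 TPM). The activated microglia and complement lists are not independent, because both hold C1qa, C1qb and C1qc. Control GB508 was low for progenitor and hedgehog genes, at 206 TPM against 255 to 279 TPM. Control GB520 was high for synapse and neurofilament genes, at 8269 TPM against 7339 to 7660 TPM. What sets these libraries apart was not tested.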

How the results depend on the processing

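Of the 76 named genes, 0 changed direction past the threshold in any alternative run. List medians near 0 did change sign in at least 1 alternative for mature granule neurons, oligodendrocyte progenitors, homeostatic microglia, monocytes, lymphocytes, brainstem and forebrain, and p53 targets. Of 1353 recomputed values of named genes, 1230 stayed on the same side of the threshold, 68 lost and 19 gained the call, and 36 moved. Of 520 recomputed list medians, 471 stayed within the spread and 49 moved.

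The counts moved more. Against controls, 36 genes were called higher and 2 lower with all samples. A pseudocount of 5 gave 10 and 0, no filter on low values 4 and 0, a fit of all 4 groups 22 and 9, and eBayes without a trend 10 and 0. Lower calls numbered 7 with median-of-ratios scaling and 18 with quantile normalization. The wider rule gave 1627 and 897. Against Brca2-mut controls alone 2 were higher, and against Trp53-mut controls alone 7 were higher and 22 lower. Leaving out 1 sample gave 0 to 564 higher and 0 to 29 lower. In tumors against adjacent samples (755 higher, 2852 lower), higher calls numbered 465 with no filter, 1296 with median-of-ratios scaling, 1648 with quantile normalization, and 1278 with all 4 groups. The wider rule gave 2870 higher and 5110 lower, and leaving out 1 sample 189 to 913 higher and 2167 to 2674 lower. Of these calls 20.9% were higher, and 34.4% and 43.6% with both scalings, which moved the median of all genes by 0.16 and 0.28. With the mouse as a replicate block, 701 were higher and 2841 lower. Adjacent samples and controls come from different mice, so no block applies there. The causes of these moves were not tested.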
